A study of Mus musculus with 405 samples.

Results

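Dithiocarbamates are sulphur-containing pesticides that bind metal ions, and 7 of 393 libraries in a chemical screen on mouse cortical neuron cultures were made from cultures treated with them. The libraries were taken by the chemical named in the sample label. Mancozeb and thiram had 2 libraries each. Maneb, metiram-zinc and metam-sodium hydrate had 1 each. No column named zineb, ziram or propineb was found among those used here. Ethylenethiourea, a breakdown product, had 2 libraries and was kept apart. Methyl isothiocyanate, which metam releases, had 1 library and was used for a single comparison. The reference was 49 vehicle libraries.

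All cultures were labelled as prepared at embryonic day 15, slightly later than the stage in the methods, from cortex of hybrid embryos of C57BL/6J dams and CAST/EiJ sires, and all of them received the antimitotic 5-fluoro-2'-deoxyuridine with uridine on day 3 in vitro. Chemicals were added on day 7 for 24 h, at 10 µM for every compound described here, and the vehicle was dimethyl sulphoxide. The labels do not say whether libraries of 1 chemical came from separate cultures, so the spread behind each p-value may be technical. In the bulk RNA of a mixed culture, fewer cells of a type and less RNA per cell cannot be told apart.

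Mancozeb, maneb and metiram-zinc are ethylenebisdithiocarbamates (EBDCs). They share an ethylene-bridged ligand with a dithiocarbamate group at each end. The bound metal is manganese in maneb, manganese with zinc in mancozeb and zinc in metiram-zinc, and the compounds may differ in more than the metal. Thiram is a disulphide of dimethyldithiocarbamate with no metal in the molecule, and metam is a sodium salt of monomethyldithiocarbamate.

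Dithiocarbamates can carry zinc and copper across membranes and can react with thiols. Free zinc is sensed by MTF1, which binds metal-response elements and switches on metallothioneins and the zinc exporter Slc30a1. Thiol-reactive compounds release NRF2, which drives antioxidant genes, and several kinds of stress raise ATF4, which drives genes for making and importing amino acids.

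The promoters below are shown because they precede the 3 metal-response genes that rose with thiram and Asns, an ATF4 target that rose with metiram-zinc. Each is the 250 bases before the RefSeq start in GRCm38.p6, 5′ to 3′ on the gene's strand. Capitals mark the letters TGCACNC or TGCGCNC, read on either strand, in the first 3 sequences, and TGATGNAA on either strand in the last.

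Mt1, chr8:94178839-94179088, plus strand: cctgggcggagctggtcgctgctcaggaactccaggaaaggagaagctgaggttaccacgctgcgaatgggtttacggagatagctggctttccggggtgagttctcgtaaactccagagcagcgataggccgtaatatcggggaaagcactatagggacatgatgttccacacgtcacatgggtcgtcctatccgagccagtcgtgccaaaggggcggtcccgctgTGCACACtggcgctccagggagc
Mt2, chr8:94172368-94172617, plus strand: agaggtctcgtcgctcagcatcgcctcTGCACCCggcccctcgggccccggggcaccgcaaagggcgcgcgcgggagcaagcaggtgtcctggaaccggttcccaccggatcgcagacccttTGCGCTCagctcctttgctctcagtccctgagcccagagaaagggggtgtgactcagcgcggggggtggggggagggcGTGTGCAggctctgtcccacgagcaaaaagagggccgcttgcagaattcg
Slc30a1, chr1:191906531-191906780, plus strand: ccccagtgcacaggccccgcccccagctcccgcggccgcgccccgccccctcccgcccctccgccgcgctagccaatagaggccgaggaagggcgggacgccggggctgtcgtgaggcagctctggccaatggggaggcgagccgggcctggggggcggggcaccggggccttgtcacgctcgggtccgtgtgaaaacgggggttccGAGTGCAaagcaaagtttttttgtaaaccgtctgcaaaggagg
Asns, chr6:7693210-7693459, minus strand: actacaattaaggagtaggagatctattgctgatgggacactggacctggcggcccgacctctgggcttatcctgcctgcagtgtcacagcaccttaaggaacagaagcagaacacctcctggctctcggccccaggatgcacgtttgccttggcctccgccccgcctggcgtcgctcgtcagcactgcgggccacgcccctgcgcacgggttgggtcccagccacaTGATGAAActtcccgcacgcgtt

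The metal-response letters were present once in the Mt1 window, 3 times in the Mt2 window and once in the Slc30a1 window. At least 1 match was found in 21.4% of 32851 promoter windows of this length, and at least 3 matches in 1.26%. The window of the zinc importer gene Slc39a10 held none. The ATF4-type letters were found in 3.45% of windows, and Asns was the only gene with a match among the 8 ATF4-list genes that rose in the EBDCs. A match is a stretch of letters and not a measured binding site.

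Values are log2 deviations of normalised expression from each gene's median over the screen, converted from the deposited log10 scale. They carry no level and no read depth. A log2 difference below is the mean of a chemical minus the vehicle mean, with its standard error, and the adjusted p is from limma over 13304 genes with a threshold of 0.05. The EBDC value averages the 3 chemicals equally over 4 libraries. A chemical with 1 library was assumed to vary like the vehicle libraries and the duplicates.

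The spread over genes within a library was 0.36 to 0.44 in the treated libraries and 0.27 to 0.52 in the vehicles. Vehicle replicate 39 had the highest spread. In a separate count table of 4 vehicle libraries, neuron markers were the most abundant and glial markers were present. Summed levels in CPM (reads scaled to a common library total) were 6893 to 7038 for 10 neuron markers, 669 to 1187 for 8 astrocyte markers, 27.7 to 42.9 for 9 microglia markers, 99.3 to 197 for 7 oligodendrocyte lineage markers, 98.3 to 222 for 10 mural and fibroblast markers and 25.7 to 54.6 for 6 markers of dividing cells. Endothelial markers summed to 1.04 to 3.60, with 1 of 6 at 0 in all 4 libraries.

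The compounds differed in how many genes passed the test. Metiram-zinc had 164 genes, 1.23% of those tested, with 59 higher (0.443%) and 105 lower (0.789%). Mancozeb had 43 (0.323%), with 7 higher (0.0526%) and 36 lower. Thiram had 34 (0.256%), with 7 higher (0.0526%) and 27 lower (0.203%). Metam had 17 (0.128%), maneb 14 (0.105%) and ethylenethiourea 6 (0.0451%). Metam and ethylenethiourea had 0 genes higher by limma, while 1007 and 821 genes in either direction had an unadjusted p under 0.05. Without mancozeb replicate 1 its count was 9, without replicate 2 it was 16, and without vehicle replicate 39, a library left out after the data were seen, it was 137, with 326 for metiram-zinc. Ethylenethiourea gave 0 by limma without replicate 1 (745 at an unadjusted p under 0.05) and 21 without replicate 2. These counts are not a ranking of potency, since the number of libraries differed.

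Lying outside the vehicle range is common for a single library. The metiram-zinc library lay above all 49 vehicles for 4.23% of genes and below them for 5.38%, maneb for 2.02% and 2.13%, and metam for 2.14% and 3.77%. Both libraries did so for 0.278% and 0.489% of genes with mancozeb, 0.12% and 0.256% with thiram and 0.256% and 0.15% with ethylenethiourea. All 4 EBDC libraries did so for 0.00752% of genes in each direction.

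The EBDC average called 151 genes, 1.13%, with 39 higher (0.293%) and 112 lower (0.842%). It rested on metiram-zinc: 2 genes were called without the metiram-zinc library, 13 without mancozeb replicate 2, 577 without maneb, of which 137 were among the 151, and 316 without vehicle replicate 39. Against the other 254 chemicals at 10 µM in place of vehicle, the 3 EBDCs had 0 calls by limma, with a lowest adjusted p of 0.0601 and 904 genes at an unadjusted p under 0.05.

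Mancozeb, metiram-zinc and metam moved together across genes more than most vehicle pairs did. Spearman's rho over 13304 genes was 0.163 between the mancozeb libraries and 0.105 and 0.277 between each of them and metiram-zinc. Metam gave 0.0951 and 0.158 with the mancozeb libraries and 0.197 with metiram-zinc. Among 1176 vehicle pairs the median was 0.0289, and 5.53% of pairs lay above 0.1.

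Maneb did not share this pattern. Its rho with the other EBDC libraries was -0.036 to -0.015. The thiram libraries correlated at 0.0309 with each other, the ethylenethiourea libraries at 0.0033, and metam with methyl isothiocyanate at 0.0091. Genes are not independent replicates, and all values share the same centring and batch removal, so these correlations are a description.

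Thiram raised the metallothioneins. Mt1 and Mt2 are small cysteine-rich proteins that store zinc and copper, and both were higher in each thiram library than in any vehicle. Slc30a1, the plasma membrane exporter that lowers cytosolic zinc, also rose, and Slc39a10, a zinc importer, fell. Of 22 measured metallothionein and zinc transport genes, 3 rose (all-gene share 0.0526%) and 1 fell (0.203%) with thiram, at a list median of 0.05 beside 0.00 over all genes. None of the 22 passed in any EBDC, in metam or in ethylenethiourea.

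For Mt1 (mm9, chromosome 8, 96702989 to 96704225, plus strand), the thiram libraries had log2 deviations of 1.42 and 2.36, against -1.96, -0.10 and 0.88 for the lowest, median and highest vehicle. The EBDC libraries lay at -0.26 and 0.00 for mancozeb, 0.56 for maneb and 0.27 for metiram-zinc, metam at -0.04, ethylenethiourea at -0.33 and -0.16, and methyl isothiocyanate at 0.95. Thiram and methyl isothiocyanate lay above all vehicles, and the other libraries lay inside the vehicle range. Mt1 was 2.00 ± 0.37 higher in log2 with thiram, a 3.99-fold rise (95% interval 2.40 to 6.63, limma adjusted p = 0.00189).

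Mt2 (chromosome 8, 96696518 to 96697467, plus strand) had log2 deviations of 1.13 and 2.05 with thiram and a vehicle range of -0.68 to 0.65 with a median of 0.02. Mancozeb gave -0.08 and 0.13, maneb 0.23, metiram-zinc 0.25, metam 0.42, ethylenethiourea -0.05 and 0.05, and methyl isothiocyanate 0.67. Thiram stood clear of every vehicle and of every other dithiocarbamate, and methyl isothiocyanate lay just above the highest vehicle. The thiram difference was 1.62 ± 0.23 in log2, or 3.08-fold (2.22 to 4.27, limma adjusted p = 2.42e-05).

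Slc30a1 (chromosome 1, 193730646 to 193737126, plus strand) separated the thiram libraries from each other. Its deviations were 0.19 and 1.16 with thiram, against a vehicle range of -0.27 to 0.45. The first lay within that range and the second above it. The difference was 0.61 ± 0.12 (limma adjusted p = 0.00405).

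Slc39a10 (chromosome 1, 46864389 to 46910891, minus strand) split in the same way. Thiram gave -0.17 and -1.54, against -0.30 to 0.30 in vehicles. Only the second library fell below all vehicles. The difference was -0.87 ± 0.13 (limma adjusted p = 3.41e-05).

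The metal calls rested on thiram replicate 2. Without it, Mt1 was 1.52 higher in log2 (limma adjusted p = 0.318), Mt2 1.16 higher (0.112), Slc30a1 0.12 higher (0.878) and the Slc39a10 difference -0.19 (0.79). An exact two-sided permutation test over libraries gave p = 0.00157 for both metallothioneins, the smallest that 2 libraries against 49 allow, and an adjusted p of 0.0127 over 30 such tests. For Slc30a1 the exact test gave p = 0.011, adjusted p = 0.0484.

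Among 257 chemicals tested at 10 µM, thiram ranked first for Mt1, Mt2, Slc30a1 and Clu and last for Slc39a10. Clu encodes clusterin, a secreted chaperone. Its deviations were 0.32 and 0.91 with thiram and at most 0.21 in vehicles, a difference of 0.67 ± 0.12 (limma adjusted p = 0.00136) that lost its call without thiram replicate 2 (0.38, adjusted p = 0.617). All 16 copper genes were measured and 2 rose with thiram (all-gene share 0.0526%), the same metallothioneins again, with 0 called in the other compounds by limma. The largest fall with both thiram libraries on the same side was that of Mir6369, at -3.57 and -3.88, a small gene with 7 to 22 reads in the vehicle count libraries.

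**Figure D1:**
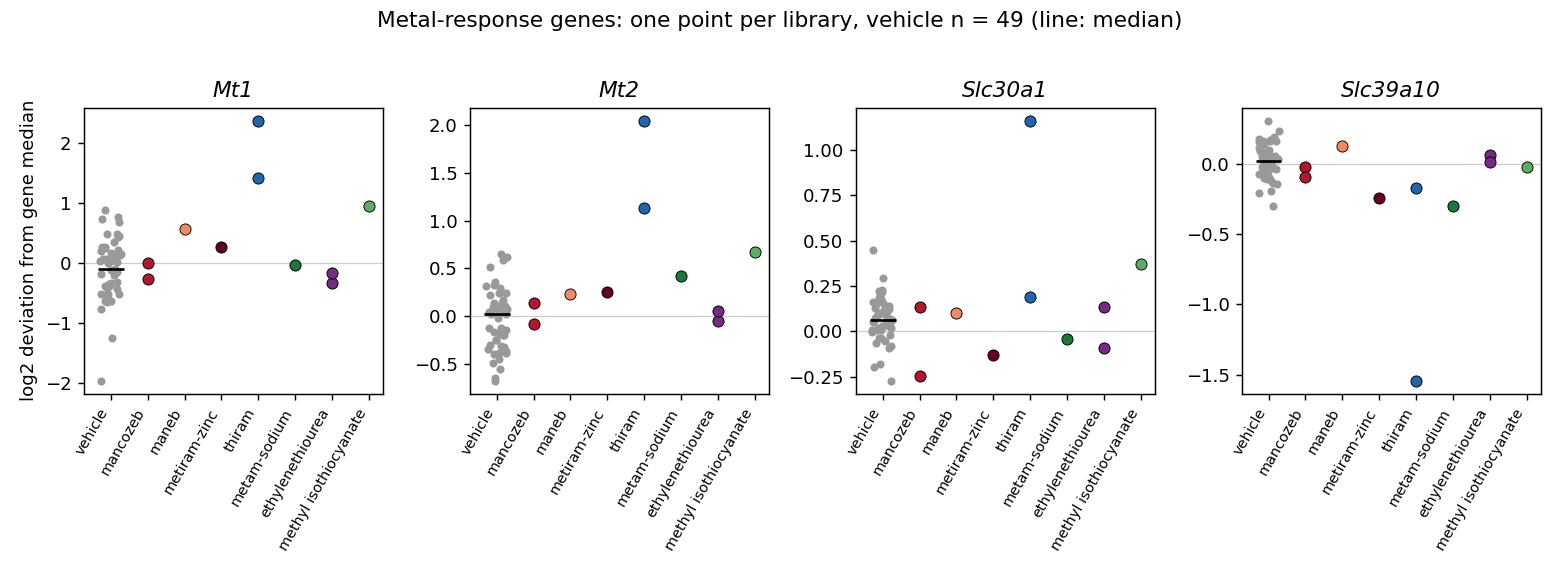
Log2 deviation from the gene median (y axis) of Mt1, Mt2, Slc30a1 and Slc39a10 in each library (x axis, by chemical). Grey points are the 49 vehicle libraries with their median as a line, and each coloured point is 1 library. Both thiram points lie above the vehicles for Mt1 and Mt2, while for Slc30a1 and Slc39a10 only 1 of the 2 lies outside the vehicle range.

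Mancozeb and metiram-zinc raised antioxidant genes, and maneb at the same dose did not pass the test. Srxn1, which repairs overoxidised peroxiredoxins, and Hmox1, which degrades heme, rose with both compounds. Prdx1, a peroxide-removing peroxiredoxin, rose in the EBDC average only. Of 28 NRF2-list genes, 3 rose in the EBDC average, against 0.293% of all genes, and 2 each in mancozeb (0.0526%) and metiram-zinc (0.443%). The list median in the EBDC average was 0.15 beside -0.01 over all genes, and 25 of 28 differences were positive. By library, the list medians of mancozeb replicate 1 (0.28) and metiram-zinc (0.26) lay above the vehicle range of -0.21 to 0.23. Those of mancozeb replicate 2 (0.14) and maneb (0.04) lay inside it.

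Srxn1 (chromosome 2, 151931252 to 151937112, plus strand) had log2 deviations of 1.41 and 0.84 with mancozeb, 1.08 with metiram-zinc and -0.09 with maneb, against a vehicle range of -0.49 to 0.27 with a median of -0.01. Thiram gave 0.01 and 0.48, metam 0.27, ethylenethiourea -0.04 and -0.58, and methyl isothiocyanate 0.69. All mancozeb and metiram-zinc libraries lay above every vehicle, as did thiram replicate 2 and methyl isothiocyanate. Maneb lay near the middle of the vehicles. Among 257 chemicals at 10 µM, mancozeb ranked 10, metiram-zinc 11 and maneb 197 for Srxn1.

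Mancozeb raised Srxn1 by 1.14 ± 0.13 in log2, or 2.21-fold (1.85 to 2.64, limma adjusted p = 4.76e-08). Metiram-zinc raised it by 1.10 ± 0.18, or 2.14-fold (1.67 to 2.75, adjusted p = 0.000478). Maneb differed from vehicle by -0.07, with an interval of -0.43 to 0.29. The EBDC average was 0.72 ± 0.10 (adjusted p = 1.04e-05) and 0.54 without metiram-zinc (adjusted p = 0.0593). The exact permutation test took the 4 EBDC libraries, 2 of them mancozeb, as 1 group with a mean difference of 0.83. It gave p = 0.000225 and an adjusted p of 0.00676. These libraries come from 3 chemicals and are not replicates of 1 condition.

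Hmox1 (chromosome 8, 77617490 to 77624495, plus strand) gave 2.20 and 0.62 with mancozeb, 1.25 with metiram-zinc, -0.35 with maneb, 0.29 and 0.30 with thiram, 0.28 with metam, -0.61 and -0.63 with ethylenethiourea and 0.79 with methyl isothiocyanate. Vehicles ranged from -0.87 to 0.61. Mancozeb, metiram-zinc and methyl isothiocyanate lay above the vehicles, mancozeb replicate 2 only just. The difference was 1.47 ± 0.25 for mancozeb (limma adjusted p = 0.000941) and 1.32 ± 0.35 for metiram-zinc (0.0399). The mancozeb call was lost without replicate 1 (0.68, adjusted p = 0.664). The EBDC average was 0.83 ± 0.19 (0.0135), lost without mancozeb replicate 1 (0.57, 0.11) or metiram-zinc (0.59, 0.574).

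Prdx1 differed less between compounds. Its deviations were 0.37 and 0.55 with mancozeb, 0.38 with maneb, 0.43 with metiram-zinc, 0.29 and 0.37 with thiram and 0.28 with metam, against -0.54 to 0.41 in vehicles. Every dithiocarbamate library lay in the upper part of that range or above it. The EBDC average was 0.42 ± 0.11 (limma adjusted p = 0.036), lost without mancozeb replicate 2 (0.147) or metiram-zinc (0.374).

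Nqo1, a quinone reductase and a standard NRF2 target, was noisy in vehicles, from -4.25 to 1.18. Its 2 to 16 reads in the vehicle count libraries left it poorly measured. The EBDC average was 1.29 ± 0.45 and did not pass (limma adjusted p = 0.148). The thioredoxin reductase Txnrd1 came close in mancozeb, at 0.45 ± 0.11 (0.0515).

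Of 14 iron genes, 2 rose in the EBDC average, Hmox1 and the iron exporter Slc40a1, against 0.293% of all genes. Slc40a1 deviations were 0.71 and 1.19 with mancozeb, 0.85 with maneb and 2.09 with metiram-zinc, against -1.49 to 1.36 in vehicles. Only metiram-zinc lay above the vehicles. The EBDC average was 1.30 ± 0.30 (limma adjusted p = 0.0156), lost without metiram-zinc (0.90, 0.603) or mancozeb replicate 2 (1.22, 0.0959).

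**Figure D2:**
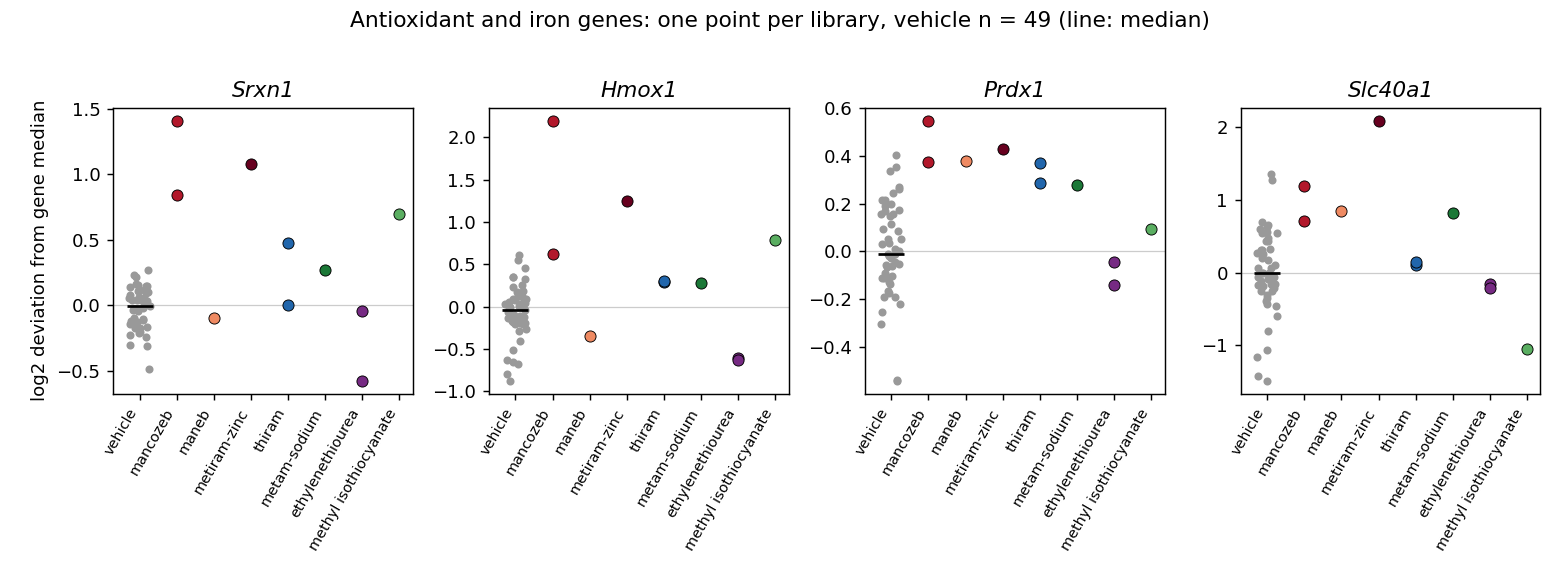
Log2 deviation from the gene median (y axis) of Srxn1, Hmox1, Prdx1 and Slc40a1 in each library (x axis, by chemical), drawn as for the metal genes. For Srxn1 and Hmox1 the mancozeb and metiram-zinc points lie above all 49 vehicles, and the maneb point lies among them.

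Genes of the amino acid branch of the stress response were higher in the single metiram-zinc library, so compound and library cannot be told apart. Of 26 ATF4-list genes, 8 rose with metiram-zinc by limma with its shared spread and 8 in the EBDC average, 6 of them in both. All-gene shares for higher calls were 0.443% in metiram-zinc and 0.293% in the EBDC average. The list median was 0.79 with metiram-zinc, 0.35 with mancozeb, 0.14 with metam, 0.11 with maneb and -0.01 with thiram, beside all-gene medians between -0.01 and 0.00. No list gene passed in mancozeb, maneb, metam, thiram or ethylenethiourea, which include every compound with 2 libraries.

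Asns, asparagine synthetase, had log2 deviations of 0.27 and 0.15 with mancozeb, 0.02 with maneb and 0.89 with metiram-zinc. Thiram gave -0.37 and -0.40, metam 0.06 and ethylenethiourea 0.17 and -0.16, against -0.44 to 0.49 in vehicles. Only metiram-zinc left the vehicle range. Its difference was 0.99 ± 0.18, or 1.99-fold (1.55 to 2.55, limma adjusted p = 0.00133).

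Atf4 itself, the transcription factor, showed the same order, with 0.30 and 0.38 for mancozeb, 0.04 for maneb, 0.78 for metiram-zinc, -0.03 and -0.75 for thiram and 0.07 for metam. Vehicles ranged from -0.56 to 0.40. Metiram-zinc lay above them and thiram replicate 2 below. The metiram-zinc difference was 0.84 ± 0.20 (limma adjusted p = 0.0171).

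Metiram-zinc also raised Shmt2, a mitochondrial enzyme of serine and folate metabolism, by 1.48 ± 0.29 in log2 (0.00492), and Sesn2, a stress-induced regulator of mTOR signalling, by 1.20 ± 0.25 (limma adjusted p = 0.00635). The rest of its 8 genes were the serine synthesis gene Psat1, the amino acid transporter subunit Slc7a5, the transcription factor Atf5 and Ppp1r15a, which brings a phosphatase to eIF2alpha. In the EBDC average Psph, a serine synthesis gene, and Slc3a2, the partner of Slc7a5, passed in place of Sesn2 and Slc7a5.

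All 8 EBDC calls were lost without the metiram-zinc library, and 1 remained without mancozeb replicate 2. Without metiram-zinc, the EBDC difference of Asns fell from 0.47 to 0.21 (limma adjusted p = 0.679). By rank among 257 chemicals at 10 µM, metiram-zinc was first for Asns, Atf4 and Shmt2. Mancozeb ranked 41, 25 and 33 for these genes, and maneb 133, 124 and 118. Of 16 ER chaperones, 0 passed in any compound by limma.

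**Figure D3:**
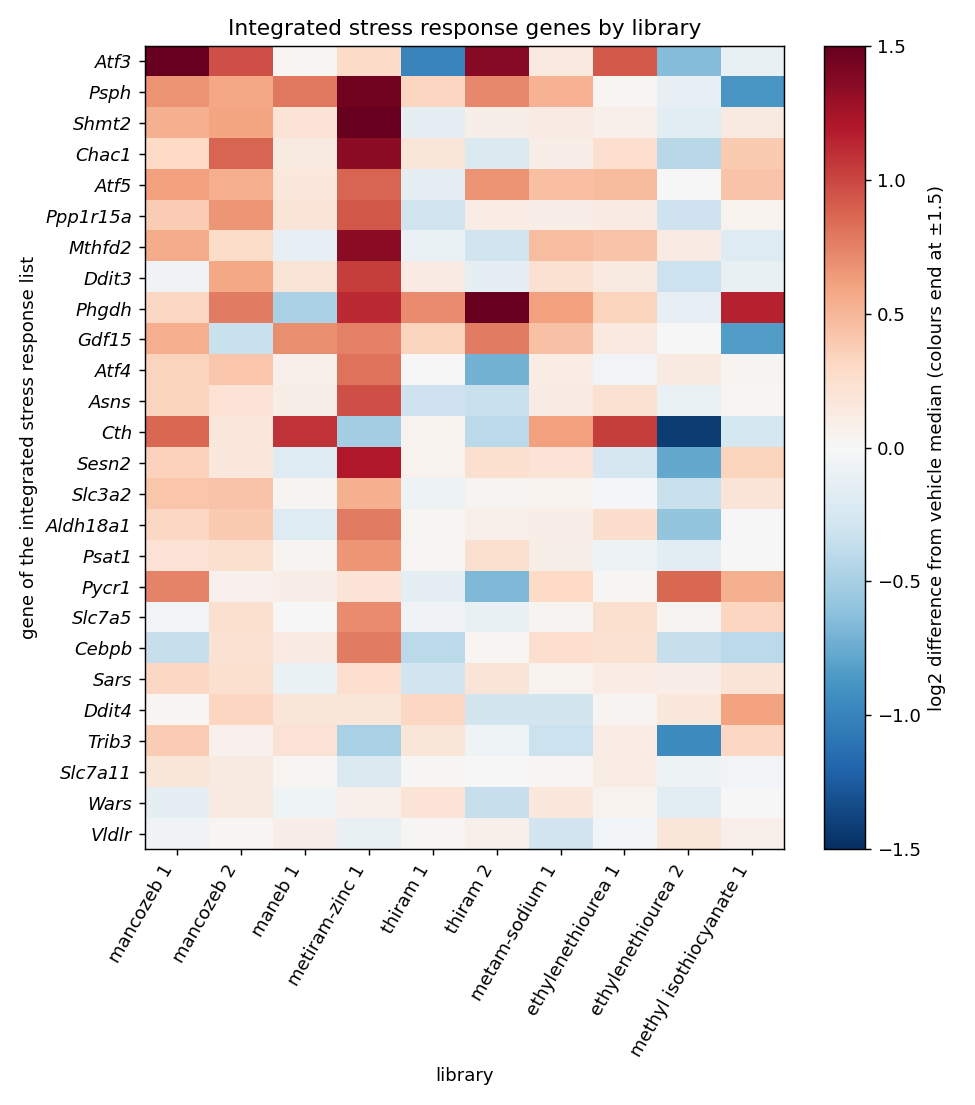
Heat map of the log2 deviation of 26 ATF4-list genes (rows) in 10 libraries (columns), on a colour scale that ends at ±1.5. The metiram-zinc column is high over most of the list, with a median of 0.77, while mancozeb (0.34 and 0.26) and maneb (0.09) lie within the vehicle range of -0.26 to 0.40.

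Several voltage-gated potassium channel genes fell with mancozeb or metiram-zinc. Kcnb2 encodes a delayed rectifier subunit, Kcnq3 an M-current subunit, and Kcnv1 and Kcng1 modifier subunits. Of 41 channel genes, 3 fell in the EBDC average (all-gene share 0.842%), 2 in metiram-zinc (0.789%) and 2 in mancozeb (0.271%), with 0 higher by limma. List medians were -0.10 in the EBDC average, -0.23 in mancozeb and -0.17 in metam. The list median of every treated library lay inside the vehicle range of -0.2046 to 0.2145, mancozeb replicate 2 (-0.2042) only just. Falls of potassium channel genes had been seen in these data before the list was drawn up, so their direction is not independent evidence. Vehicle replicate 39, an untreated library that stood apart, was also low in these genes. It was the lowest vehicle for Kcnb2 (-0.33), Kcnv1 (-0.64) and Kcng1 (-1.10) and the second lowest for Kcnq3 (-0.47). Without it, 6 channel genes were called in the EBDC average, beside 316 of all 13304 genes. Of the 6, Kcns2 was higher (0.43) and the others were lower.

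Kcnb2 gave -0.16 and -0.89 with mancozeb, -0.04 with maneb, -0.80 with metiram-zinc, 0.48 and 0.24 with thiram, -0.57 with metam and -0.55 and 0.32 with ethylenethiourea, against -0.33 to 0.56 in vehicles. Kcnq3 gave -0.65 and -0.89 with mancozeb, 0.57 with maneb, -1.77 with metiram-zinc, 0.16 and 1.62 with thiram and -0.33 with metam, against -0.75 to 1.37. Metiram-zinc and mancozeb replicate 2 lay below the vehicles for both genes, metam and ethylenethiourea replicate 1 for Kcnb2, and maneb and thiram for neither.

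The EBDC average was -0.64 ± 0.12 for Kcnb2 (limma adjusted p = 0.00268), -1.12 ± 0.23 for Kcnq3 (0.00815) and -0.51 for Kcnv1 (0.0338). None of the 3 was called without metiram-zinc (adjusted p from 0.31 to 0.657) or without mancozeb replicate 2 (0.0569 to 0.158). In mancozeb, Kcnb2 was lost without replicate 2 (-0.35, 0.815) and Kcng1 without either replicate (0.278 and 0.446).

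Activity-regulated genes split by compound too. In its single library, metiram-zinc raised 5 of 30 secreted and effector genes (Scg2, Cartpt, Adcyap1, Nrn1 and Rgs2), against 0.443% of all genes, and Nrn1 rose in the EBDC average (0.45, limma adjusted p = 0.0194), lost without mancozeb replicate 2 (0.123) or metiram-zinc (0.615). Cartpt, a neuropeptide precursor, had a deviation of 2.50 with metiram-zinc, above the highest vehicle at 1.88, and a difference of 2.74 (limma adjusted p = 0.0357). Among 20 immediate early factors, Egr3 fell in the EBDC average (-1.12 ± 0.25, limma adjusted p = 0.0135, all-gene share 0.842%) and Egr1 in metiram-zinc (-1.23, 0.0399, share 0.789%). The list leaned the other way. In the EBDC average 15 of 20 differences were positive (median 0.35), and in metiram-zinc 14 of 20 (median 0.29). The all-gene median was -0.01 in each. The list medians of the libraries were 0.46 and 0.44 in mancozeb, 0.04 in maneb and 0.27 in metiram-zinc. All lay inside the vehicle range of -0.49 to 0.74. The Egr3 call was lost without mancozeb replicate 2 (0.0979) or metiram-zinc (0.374).

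Fos deviations were 1.37 and 2.20 with mancozeb, 0.11 with maneb and 2.18 with metiram-zinc, and the highest vehicle was at 2.52. That limit was set by vehicle replicate 39 alone, since the next vehicle lay at 0.88. Replicate 39 was also the highest vehicle for Bdnf (2.41) and Vgf (2.80) and the lowest for Egr3 (-0.98). Both mancozeb libraries and metiram-zinc lay above the other 48 vehicles for Fos. The EBDC average of 1.31 ± 0.36 did not pass (limma adjusted p = 0.0533), nor did that of Bdnf (0.92 ± 0.26, 0.0533). Without vehicle replicate 39 both passed (0.00846 and 0.00178). By exact permutation test, Fos in the EBDC libraries had p = 0.00212, adjusted p = 0.0127. That test pooled 4 libraries of 3 chemicals as 1 group, and they are not replicates of 1 condition. Maneb, at 0.11, lay inside the vehicle range.

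Marker lists of several cell types were below vehicle in mancozeb beside these genes. In mancozeb, 9 of 10 neuron markers had negative differences, at a list median of -0.12, and Rbfox3 fell (-0.62, limma adjusted p = 0.0387). Rbfox3 deviations were -0.27 and -0.63 with mancozeb, -0.55 with metiram-zinc and 0.41 with maneb, against -0.21 to 0.57 in vehicles, and its call was lost without either mancozeb replicate (0.134 and 0.667). The list medians of the libraries were -0.07 and -0.18 in mancozeb and -0.10 in metiram-zinc, inside the vehicle range of -0.18 to 0.21. Mancozeb differences had a median of -0.36 for astrocyte markers (1 of 7 positive), -0.24 for mural and fibroblast markers (1 of 9), -0.24 for oligodendrocyte lineage markers (2 of 6) and -0.55 for markers of dividing cells (0 of 6). For each of these lists both mancozeb library medians lay inside the vehicle range. Their part in the channel and activity results was not tested. No other marker list had a called gene, and the mural and fibroblast list median of 0.73 in metam lay above the vehicle range of -0.90 to 0.52.

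**Figure D4:**
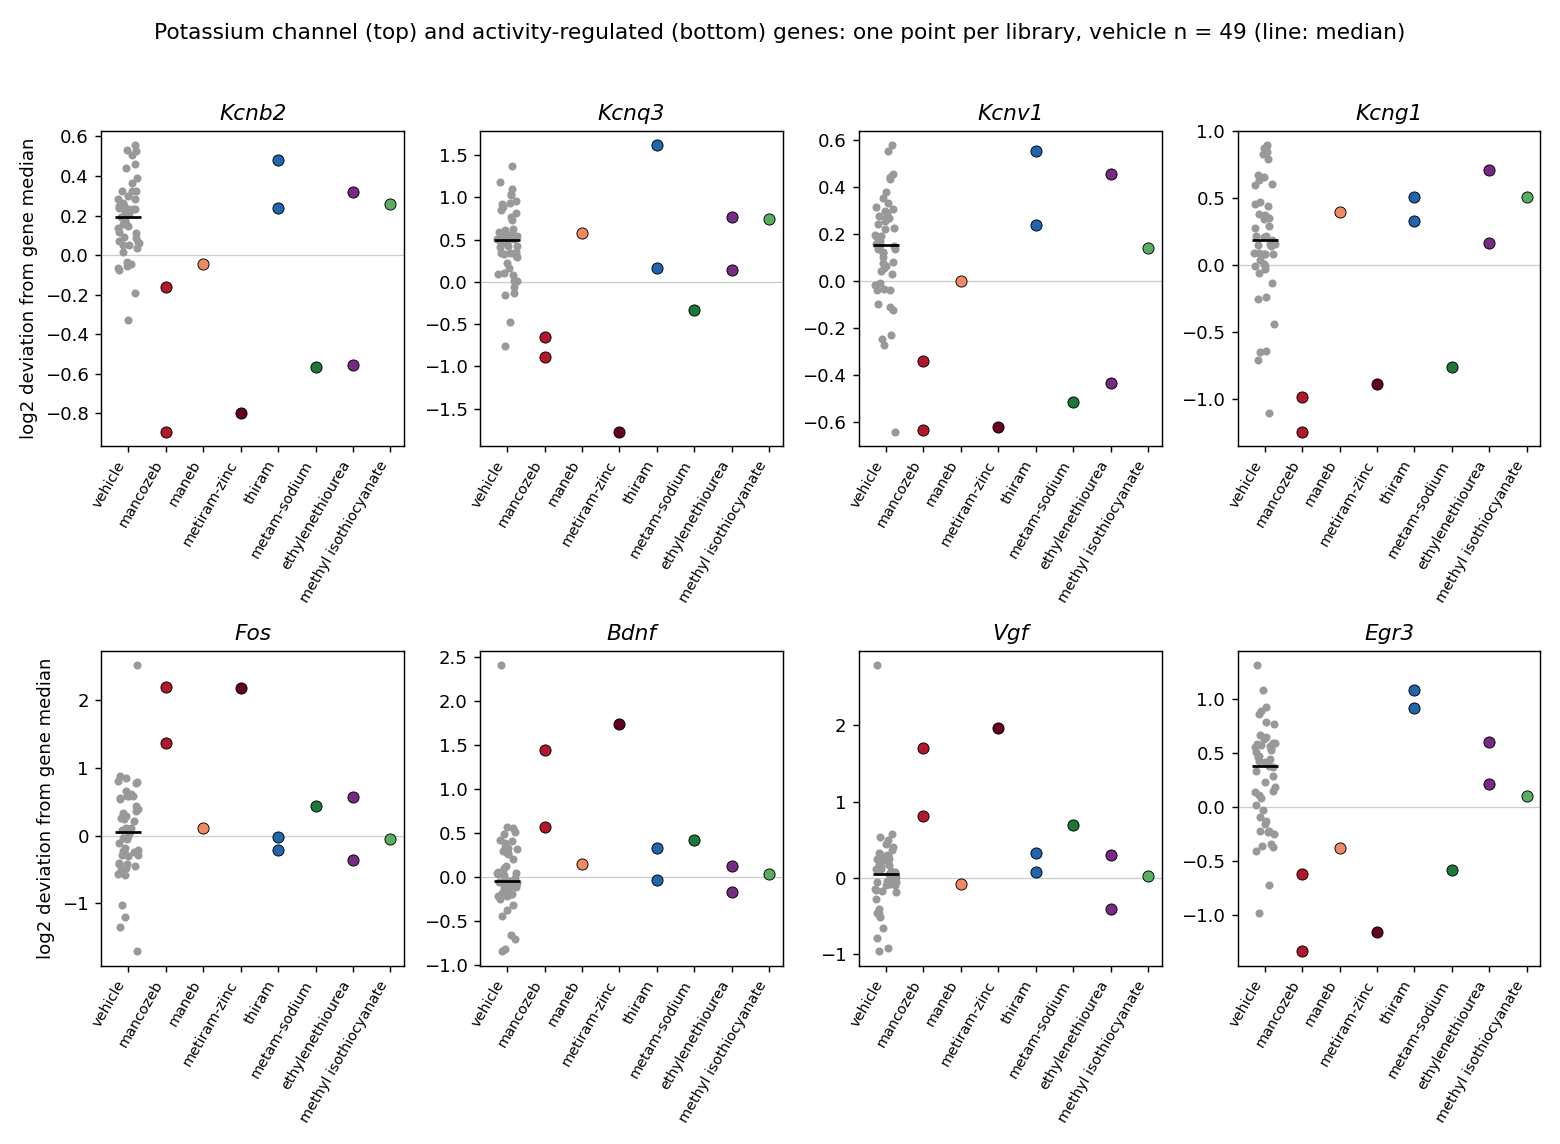
Log2 deviation from the gene median (y axis) of channel and activity-regulated genes in each library (x axis, by chemical), drawn as for the metal genes. For Kcnq3 the metiram-zinc point at -1.77 lies below all vehicles, and for Fos the single high vehicle at 2.52 is replicate 39, with the next at 0.88.

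Maneb called 14 genes, of which 1 rose (0.00752%) and 13 fell (0.0977%), and none belonged to a fixed list. Myo5c, a myosin heavy chain, rose by 2.56 in log2 (limma adjusted p = 0.00448), with a deviation of 2.54 against a vehicle maximum of 1.05. 2310061J03Rik fell by 3.92 (4.02e-06), at -3.97 against a vehicle minimum of -1.10. Each value comes from a single library with no replicate. In the vehicle count libraries Myo5c had only 1 to 10 reads and 2310061J03Rik 12 to 64.

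Metam called 17 genes, all lower (0.128%). They included the zinc finger gene Zfp618 (-3.23, limma adjusted p = 8.53e-06), the telomerase gene Tert (-2.92, 0.00678) and the dopamine receptor gene Drd2 (-3.08, 0.0294). Drd2 deviations were -2.79 with metam, -2.48 and -1.48 with mancozeb, -0.46 with metiram-zinc and 1.11 with maneb, against -1.90 to 1.63 in vehicles. Metam and mancozeb replicate 1 lay below the vehicles. Drd2 had 2 to 32 reads in the vehicle count libraries, so it was weakly measured.

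Ethylenethiourea called 6 genes, all lower. Pdyn, the precursor of the opioid peptide dynorphin, had deviations of -2.08 and -1.51, with -1.37 for methyl isothiocyanate and -1.27 to 1.11 in vehicles. Both ethylenethiourea libraries lay below the vehicles. The difference was -1.85 ± 0.35 (limma adjusted p = 0.00878), and no longer passed without replicate 1 (-1.57, 0.752). Pdyn had 7 to 21 reads in the vehicle count libraries.

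Cholesterol synthesis genes did not pass in any compound by limma, but all 21 had positive differences with ethylenethiourea, at a median of 0.31. Its library medians were 0.16 and 0.58, and vehicle medians ranged from -0.36 to 0.53, so 1 of the 2 libraries lay inside that range. Negative differences prevailed in 3 other compounds, with 1 of 21 positive in mancozeb (median -0.23), 3 in thiram (-0.24) and 2 in maneb (-0.14), while metiram-zinc had 18 positive (0.22). In mancozeb and thiram 1 library carried this, with library medians of -0.51 and -0.04 for mancozeb and 0.01 and -0.52 for thiram. The thyroid hormone list, chosen because ethylenethiourea is known to inhibit thyroid peroxidase, had 0 of 12 called in any compound.

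Further lists chosen for known dithiocarbamate targets also had 0 calls by limma in every compound. They were 17 heat shock genes, 35 proteasome and p97 cofactor genes, 15 genes of aldehyde dehydrogenases and dopamine metabolism, 21 hypoxia genes and 13 NF-kB targets. The heat shock median was 0.06 in the EBDC average and 0.04 in thiram. The proteasome median was 0.05 in the EBDC average and -0.01 in thiram. The aldehyde dehydrogenase and dopamine list leaned upward, with 14 of 15 differences positive both in the EBDC average (median 0.17) and in metiram-zinc (0.40). Its median in the metiram-zinc library, 0.352, lay above the highest vehicle at 0.156, and mancozeb replicate 2 (0.164) and ethylenethiourea replicate 1 (0.165) lay just above it. The hypoxia median was 0.10 and the NF-kB median 0.00 in the EBDC average. Among 14 genes of mitochondrial complex III, Cyc1 rose with metiram-zinc (all-gene share 0.443%). Among 15 p53 targets Sesn2 rose with it, the same call as in the ATF4 list. The p53 list median in metiram-zinc was -0.04, with 6 of 15 differences positive.

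Among genes called with all libraries on the same side, the largest rises in the EBDC average were those of Slc40a1 (1.30), the cation exchanger gene Slc24a4 (1.08 ± 0.29, limma adjusted p = 0.0448), Psph (0.92) and Nrsn1, a neuronal vesicle protein gene (0.88 ± 0.15, 0.00176). The largest falls were those of Clic6 (-1.43 ± 0.37, 0.0364) and the receptor gene Vipr1 (-1.30 ± 0.26, 0.00764). Slc24a4 had 2 to 25 and Clic6 6 to 14 reads in the vehicle count libraries, so both were weakly measured. Mancozeb raised the lysosomal gene Cd68 by 2.08 ± 0.37 (0.00184), with deviations of 1.93 and 1.68 above the vehicle maximum of 0.94, and ranked first of 257 chemicals for it. Metiram-zinc gave 1.28 for Cd68 and maneb -0.89. Of 9 microglia markers 5 were in the screen table, and their median in the mancozeb libraries, -0.19 and 0.34, lay within the vehicle range of -0.86 to 0.67.

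Metiram-zinc had large falls of Camkmt (-3.97, limma adjusted p = 2.30e-06) and Ern1, the ER stress sensor IRE1 (-3.04, 0.000812). Camkmt was at -3.78 in that library and between -0.27 and 0.20 in the other EBDC libraries. Ern1 was at -2.89 and between 0.16 and 0.38. Neither has a replicate check. Camkmt had 6 to 33 and Ern1 4 to 26 reads in the vehicle count libraries, so both were weakly measured. Only Cd63 lay above every vehicle in all 4 EBDC libraries, at 0.59 to 0.66 against a maximum of 0.49, and only Cdkl2 lay below, at -0.37 to -0.25 against a minimum of -0.24. Both were named after their values were seen.

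Direct comparison of the compounds used 16 pairs at 10 µM and 24 h, with p adjusted over all genes and pairs together. There were 125 calls in all, 0.0587% of the gene-pair tests. Without metiram-zinc there were 69, but the pairs with it could not be tested then, so the counts cover different pairs. Without vehicle replicate 39 there were 326. Of the 125 calls, the most were between metiram-zinc and thiram, 25 genes (0.188%), and the fewest between metam and methyl isothiocyanate, 2 genes (0.015%). The comparison of the EBDC average with thiram, metam and ethylenethiourea gave 32 further calls (0.0802% of tests), 21 of them against thiram (0.158%), and 200 calls without maneb.

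Srxn1 differed between EBDCs. Maneb and metiram-zinc had 1 library each, so compound and library cannot be told apart in what follows. Srxn1 was 1.22 ± 0.22 higher with mancozeb than with maneb (limma adjusted p = 0.00553) and 1.17 ± 0.25 lower with maneb than with metiram-zinc, a difference of -1.17 (0.0403). Mancozeb against metiram-zinc gave 0.04, with an interval of -0.39 to 0.48. Without mancozeb replicate 1 the difference from maneb was 0.93 and not called (0.147). For Hmox1, mancozeb exceeded maneb by 1.76, with an interval of 0.92 to 2.60, and this did not pass (0.0789).

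Mancozeb and metiram-zinc could not be shown to act alike on the ATF4 genes. Asns was lower with mancozeb by a difference of -0.69, with an interval of -1.12 to -0.25 (limma adjusted p = 0.271), and Atf4 by -0.44, with an interval of -0.92 to 0.03. Only 4 genes were called between these compounds (0.0301%), Camkmt, Ern1, Gxylt2 and Zfand4, all lower with metiram-zinc. Like Camkmt and Ern1, Gxylt2 was weakly measured, with 1 to 11 reads in the vehicle count libraries.

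Thiram, the metal-free dimethyl disulphide, differed from the ethylene-bridged metal complexes in zinc genes and in ATF4 genes. Mt2 was lower in the EBDC average by -1.42 ± 0.29 (limma adjusted p = 0.0264), Slc30a1 by -0.70 ± 0.14 (0.0264), and Slc39a10 was higher by 0.80 ± 0.16 (0.0261). Asns was 0.76 ± 0.16 higher (0.0264) and Atf4 0.77 ± 0.17 higher (0.0472). Without thiram replicate 2 none of these 5 passed, with adjusted p of 0.401, 0.769, 0.908, 0.139 and 0.596. Without metiram-zinc, Slc30a1, Asns and Atf4 did not pass (0.104, 0.397 and 0.365). Slc30a1 and Atf4 also missed the threshold without mancozeb replicate 1 (0.0639 each), Atf4 without mancozeb replicate 2 (0.0916) or ethylenethiourea replicate 1 (0.0528) and Asns without thiram replicate 1 (0.106).

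In single pairs, Mt2 was lower with mancozeb than with thiram (-1.56 ± 0.33, limma adjusted p = 0.0308), while Asns was higher with metiram-zinc than with thiram (1.28 ± 0.22, 0.00281). Kcnq3 was lower with metiram-zinc than with thiram (-2.66 ± 0.52, 0.0205). For Mt1 the thiram and EBDC groups differed by -1.66, with an interval of -2.55 to -0.76 that did not pass (0.142). Without thiram replicate 2, Mt2 against mancozeb (-1.11, 0.39) and Kcnq3 (-1.93, 0.236) no longer passed. Mt2 against mancozeb also failed without mancozeb replicate 1 or 2 (0.201 and 0.081).

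Metam and the methyl isothiocyanate it releases differed in 2 genes, Zfyve21 (3.47, limma adjusted p = 0.00275) and Zfp618 (-3.31, 0.00642). Each had 1 library, so there is no replicate on either side and compound and library cannot be told apart. No list gene passed between them. The intervals were wide, from -0.93 to 0.08 for Srxn1 and -1.48 to 0.46 for Hmox1.

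Ethylenethiourea, the cyclic metabolite of EBDCs, stood below mancozeb and metiram-zinc for Srxn1, by 1.43 and 1.39 (limma adjusted p = 1.81e-05 and 0.00131), while maneb had no called rise either. The EBDC average exceeded it by 1.01 ± 0.16 for Srxn1 (limma adjusted p = 0.00103) and by 1.39 ± 0.30 for Hmox1 (0.0439). Without ethylenethiourea replicate 2, Srxn1 gave 0.74 (0.134) and Hmox1 1.38 (0.183). Without replicate 1, Hmox1 also failed (1.40, 0.152), as it did without mancozeb replicate 1 (1.13, 0.102) or metiram-zinc (1.15, 0.263).

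**Figure D5:**
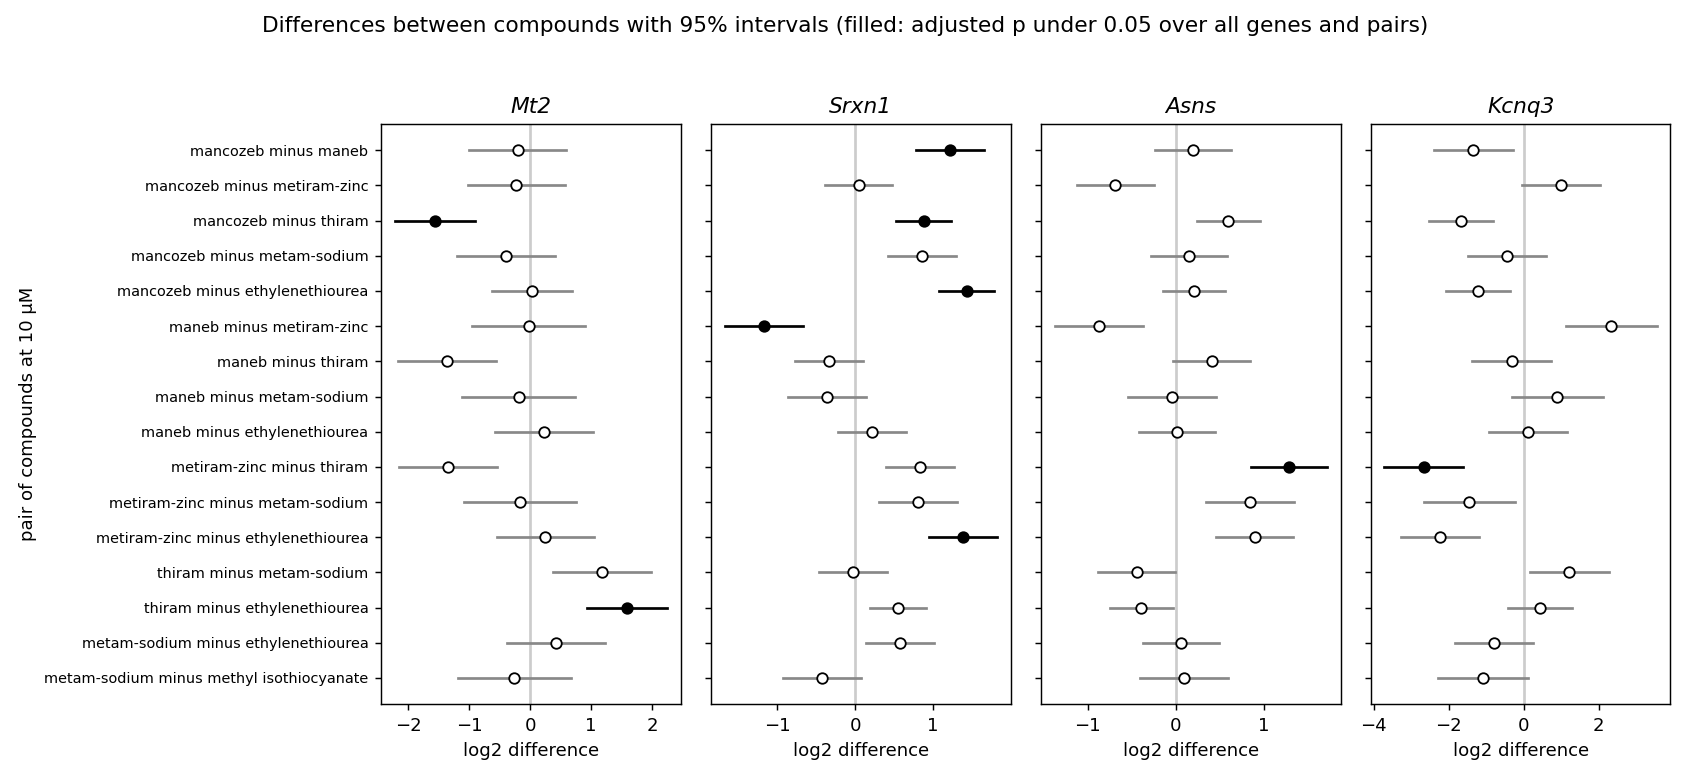
Log2 difference (x axis) with 95% interval for Mt2, Srxn1, Asns and Kcnq3 in the 16 pairs of compounds (y axis). Filled points passed the test with p adjusted over genes and pairs. The Srxn1 difference of 1.22 between mancozeb and maneb is filled, and the mancozeb and metiram-zinc difference of 0.04 is open with an interval across 0.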

How the data were processed

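RNA was measured in 393 libraries of mouse cortical cultures, 49 with vehicle. According to the study's methods, the authors aligned reads to mm9 with TopHat after TagDust cleaning, removed ribosomal reads, computed RPKM per RefSeq gene symbol, kept genes detected in nearly all samples, quantile-normalised, subtracted the median of every gene and took out batch effects by a mixed model. The deposited screen values are log10 deviations, so neither level nor depth was known, and no batch labels were given to recheck. They were divided by log10 of 2 to give log2. Counts deposited by the authors for 4 vehicle libraries (2778615 to 7833440 reads in genes), not matched here to single samples, were used only for CPM. A table with other compounds was not used.

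The test was limma 3.58.1 (R 4.3.3; lmFit and eBayes without trend) on 59 libraries with a shared spread, Benjamini-Hochberg adjusted over 13304 genes, over genes and 16 pairs, or over genes and 3 class contrasts. Intervals are 95%. For 10 key genes in 3 groups, exact two-sided permutation tests of library means were run in SciPy 1.17.1 (30 tests). Their EBDC group pooled 4 libraries of 3 chemicals, each library counting equally. Scripts used Python 3.11.15, pandas 2.3.3, numpy 2.4.6 and matplotlib 3.10.9. The fit was tested on simulated data.

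The compounds and gene lists were chosen with earlier results of these data known. Named genes are list members and the genes past the threshold with the largest differences in each direction. Against vehicle these were 10 (EBDC average) or 5 (each other chemical), with every library on the same side of the vehicle median. For each pair or class difference they were 5, without that filter. One gene is not reported here. Cd63 and Cdkl2 were named outside this rule. Promoters come from RefSeq tables of GRCm38.p6, and gene positions from mm9. Alternatives were another variance model, spread or reference set, a filter to the 5121 genes with a log10 SD above 0.1, centring, pooling, a threshold of 0.01 and leaving out each library. Leaving out vehicle replicate 39 was chosen after seeing the data.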

Additional observations from a re-analysis of the deposited data

Results flagged for a closer look

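Each result here is a list gene for which the difference between a pair of compounds, or between the EBDC average and a compound, passed limma's test of that difference. All values are log2 differences.

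For zinc genes, Mt2 differed by -1.56 between mancozeb and thiram, by 1.59 between thiram and ethylenethiourea and by -1.42 between the EBDC average and thiram. Slc30a1 differed by -0.70 between the EBDC average and thiram. Slc39a10 differed by -0.89 between thiram and ethylenethiourea and by 0.80 between the EBDC average and thiram.

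For antioxidant genes, Srxn1 was higher with mancozeb than with maneb by 1.22, than with thiram by 0.88 and than with ethylenethiourea by 1.43. It differed by -1.17 between maneb and metiram-zinc, by 1.39 between metiram-zinc and ethylenethiourea and by 1.01 between the EBDC average and ethylenethiourea. Hmox1 exceeded ethylenethiourea by 2.03 with mancozeb and by 1.39 in the EBDC average.

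For ATF4 genes, metiram-zinc exceeded thiram by 1.28 for Asns and 1.17 for Atf4, and ethylenethiourea by 1.71 for Sesn2. The EBDC average exceeded thiram by 0.76 for Asns and 0.77 for Atf4.

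For channel and activity genes, Kcnq3 differed by -2.66 between metiram-zinc and thiram. Egr3 differed by -1.84 between the EBDC average and thiram, and Pdyn by 1.96 between the EBDC average and ethylenethiourea. The cholesterol synthesis gene Mvk differed by -1.48 between mancozeb and ethylenethiourea.

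Of these 23 differences, 4 still passed without each of the other libraries in turn and 19 did not. The 4 were Srxn1 between mancozeb and ethylenethiourea, between metiram-zinc and ethylenethiourea and between maneb and metiram-zinc, and Asns between metiram-zinc and thiram. Of these, 3 rest on the single metiram-zinc library, which could not be left out. For Srxn1 between maneb and metiram-zinc neither library could be left out, so its value stayed at -1.17. Its passing is therefore no check on those libraries. Slc39a10 between thiram and ethylenethiourea became -0.21 without thiram replicate 2 (limma adjusted p = 0.822) and did not pass without either ethylenethiourea library (0.126 and 0.0933), and Mt2 likewise (0.369, 0.13 and 0.101). Srxn1 between mancozeb and thiram did not pass without mancozeb replicate 1 (0.42) or thiram replicate 1 (0.297). Hmox1 between mancozeb and ethylenethiourea was lost without mancozeb replicate 1 (0.292), Atf4 between metiram-zinc and thiram without thiram replicate 2 (0.305) and Sesn2 without ethylenethiourea replicate 2 (0.0777). Mvk was lost without mancozeb replicate 1 (0.337) or either ethylenethiourea library (0.106 and 0.102). Egr3 was lost without mancozeb replicate 2 (0.115), metiram-zinc (0.179), either thiram library (0.143 and 0.214) or ethylenethiourea replicate 1 (0.0517). Pdyn was lost without either mancozeb library (0.0639 and 0.084), maneb (0.0517) or either ethylenethiourea library (0.242 and 0.101).

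The comparisons with thiram share its 2 libraries and those with ethylenethiourea share 2 others, so these differences are not independent of each other.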

How the results depend on the processing

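No result reversed its direction under any alternative run, which was largely set in advance and is no measure of stability. All of these genes had passed the main test. The variance, spread and threshold settings leave a difference unchanged. Named genes outside the lists were picked with every library on the same side of the vehicle median. Over the single genes and settings listed in the methods, 863 results kept their side of the threshold and 322 no longer passed, and 123 of 123 kept it without vehicle replicate 39, an alternative chosen after seeing the data. No paired analysis was possible because the replicate numbers were given in accession order and mark no shared culture or day.

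For the EBDC average, main count 151, the count was 87 with the spread from all libraries, 22 among variable genes only (fewer genes tested), 238 with the 4 libraries as one group, 26 at 0.01, 316 without vehicle replicate 39 and 0 by limma against other chemicals at 10 µM (904 at an unadjusted p under 0.05), and it ranged from 2 without metiram-zinc to 577 without maneb. For mancozeb, 43, it was 22 with the spread from all libraries, 11 among variable genes, 8 at 0.01, and from 9 without replicate 1 to 137 without vehicle replicate 39. For maneb, 14, it was 29 with the spread from all libraries and 5 at 0.01. For metiram-zinc, 164, it was 19 among variable genes, 38 at 0.01 and 326 without vehicle replicate 39. Thiram, 34, gave 15 at 0.01. Metam, 17, gave 10 among variable genes and 7 at 0.01. Ethylenethiourea, 6, gave 0 by limma without replicate 1 (745 at an unadjusted p under 0.05) and 21 without replicate 2.

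The pairs, 125 calls, gave 41 at 0.01 and 326 without vehicle replicate 39. They gave 69 without metiram-zinc, where the pairs with it dropped out of the test. The class differences, 32 calls, gave 20 among variable genes, 6 at 0.01 and from 20 without mancozeb replicate 2 to 200 without maneb, with 61 without vehicle replicate 39.

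In the EBDC average the 8 ATF4 calls became 1 among variable genes, 1 at 0.01, 0 against other chemicals, and from 0 without metiram-zinc to 13 without maneb. The 3 NRF2 calls became 1 at 0.01, 0 against other chemicals, and from 0 without metiram-zinc to 5 without maneb. The 3 potassium channel calls became 5 with the 4 libraries as one group, 0 against other chemicals and 6 without vehicle replicate 39. They ranged from 0 without mancozeb replicate 2 to 8 without maneb. Kcns2 was higher among the 6 and Kcnj3 among the 8. The 4 thiram metal calls became 2 among variable genes and ranged from 0 without thiram replicate 2 to 4 without vehicle replicate 39. Of 30 key-gene tests, 8 passed by exact permutation and 5 by limma. The causes of these changes were not tested. The values carry no depth, and most chemicals had 1 library, which limits every comparison of compounds.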
